A study of Mus musculus with 15 samples.

Results

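The comparison MEFD5min/MEFD3min followed untreated mouse embryonic fibroblasts (MEFs), primary cells grown out of embryonic connective tissue, from day 3 to day 5 of culture. It set 3 MEFD5min samples against 3 MEFD3min samples, 6 of the 15 samples in the series, and the samples were taken by their group labels and by no measured value. By the labels all MEFs came from wild-type BALB/c embryos aged 10.5 days, whereas the study's general account of MEFs names another strain and a later age, and they were kept in DMEM with 10% foetal bovine serum. Day 0 was confluency, so MEFD0 (3 samples) was the confluent start, and MEFD3min and MEFD5min were the same kind of culture left without the adipogenic mixture for 3 and 5 days. The other 6 samples were MEFD3plu and MEFD5plu. They received insulin at 10 µg/mL, rosiglitazone at 10 µM, dexamethasone at 1 µM and isobutylmethylxanthine at 0.5 mM for 3 days. Growth medium then followed to day 5. These samples entered the choice of tested genes, the scaling of all samples, the estimate of the spread and 1 test at the end. Whether the medium of the untreated wells was also renewed on day 3 is not given in the sources used here. MEFs are a mixed primary population, and how many embryos were pooled is likewise not given. Replicates carry the numbers 1, 3 and 4, and values are given in that order throughout; the labels do not say whether they were separate cultures, and the methods speak only in general of independent experiments, so p-values measure the spread between these samples.

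Confluent fibroblasts in serum slow their division by contact inhibition, and genes of DNA replication and mitosis, which are switched on by E2F factors and by FOXM1, are high in cycling cells and low in resting ones. Fibroblasts also lay down and remodel the collagen matrix around them. Like nearly all cells they answer type I interferon through JAK kinases and transcription factors such as IRF9, which bind interferon response elements and turn on a common set of antiviral genes, and they answer low oxygen through HIF1, which turns on glycolysis genes.

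Expression was measured by RNA-Seq as reads counted per gene. The 9 untreated samples held between 24030558 (MEFD5min replicate 3) and 36039085 (MEFD3min replicate 3) counted reads, and levels are given as CPM, the reads of a gene relative to all counted reads of its sample after scaling by the trimmed mean of M values (TMM), which compares 1 gene between samples and not genes with each other. In these samples 12 of 12 fibroblast markers were present, while Adgre1, Tyrobp, C1qa and C1qb of macrophages, Cldn5 of endothelium, Krt5 and Krt14 of epithelium, Myod1 and Myog of muscle and Sox10 of glia were at 0. MEFD5min replicate 3, the least deeply sequenced of the untreated libraries, stood apart from the other MEFD5min samples in its interferon genes, MEFD3min replicate 3 in its collagen genes and MEFD3min replicate 4 in its mitochondrial transcripts. Values without them stand beside many, but not all, of the results on interferon, collagen and mitochondrial genes. Over all tested genes, MEFD5min replicate 3 lay at distances (log2 CPM) of 62.1 and 63.5 from replicates 1 and 4, which lay 49.9 apart. It was nearer the MEFD0 samples, at 128.8 to 132.9 against 142.2 to 148.9 for replicates 1 and 4. It was also the lowest of MEFD5min in the summed matrix protease, IGF axis and lysosome lists. For genes of other lists, values without it are given only in part. The fibroblast markers summed to 25430.5 to 36709.6 CPM in MEFD3min and 14937 to 16824 CPM in MEFD5min, with 3 of 12 higher and 6 lower. The 8 endothelial markers summed to 6.11 to 7.60 CPM in MEFD3min and 10.2 to 18.95 CPM in MEFD5min, with Emcn and Cdh5 higher. The neural and glial markers summed to 242 to 304 CPM and 324 to 350.1 CPM, most of it Nes, with 3 of 6 tested (Elavl4, Map2 and Nes) higher and none lower; Nes did not pass without MEFD5min replicate 3 (adjusted p = 0.0949, edgeR). The part of other cell types in the results below was not tested. Reads were assigned to genes by the authors, and the sources differ on whether the library kit kept the strand, so for some genes the percent of exon bases that lie under a gene on the other strand, or of their 50-base stretches that also occur in another gene, is given as a limit on how far their reads can be told apart. A bulk sample cannot tell fewer cells of a type from less RNA per cell, and this holds for every level below.

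Between day 3 and day 5, 6845 of 15997 tested genes (42.8%) were differentially expressed genes (DEGs) at a Benjamini-Hochberg adjusted p under 0.05 in edgeR's quasi-likelihood test, 3400 (21.3%) higher and 3445 (21.5%) lower in MEFD5min. The 3 samples of one day lay wholly above the 3 of the other in 7492 genes (46.8%), of which 3759 (23.5%) were higher and 3733 (23.3%) lower in MEFD5min. The median log2 fold change over all tested genes was -0.03, with quartiles at -0.38 and 0.36, and 1264 DEGs rose and 886 fell by at least 2-fold. The DEGs were 49.7% higher with TMM scaling and 62.7% higher (4302 higher, 2564 lower) when samples were scaled by total counts alone, which moved the median of all genes by 0.10. For the same 15997 genes, MEFD3min/MEFD0 gave 9602 DEGs (60.0%) and MEFD5min/MEFD0 gave 7421 (46.4%). These 3 comparisons share samples, so their values stand side by side and no overlap between them is drawn. Each count of list members in MEFD5min/MEFD3min below is to be read beside the 21.3% higher and 21.5% lower of all genes.

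**Figure D1:**
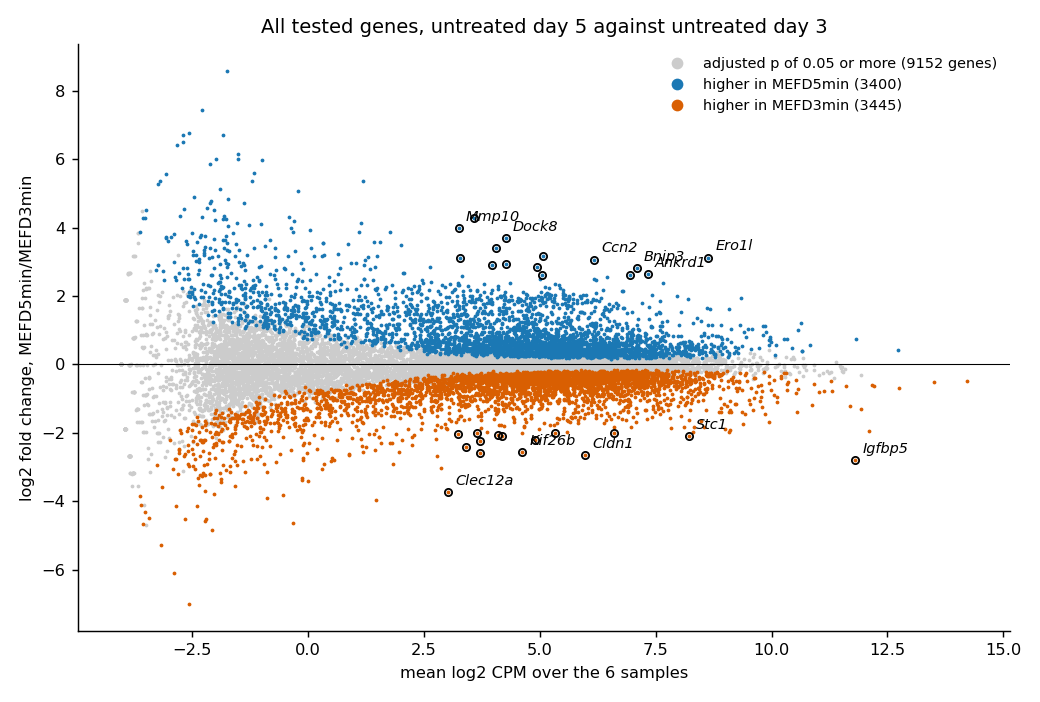
Each point is 1 of 15997 tested genes, with its mean log2 CPM over the 3 MEFD3min and 3 MEFD5min samples on the x axis and its log2 fold change, MEFD5min/MEFD3min, on the y axis. Blue marks the 3400 genes higher and orange the 3445 genes lower in MEFD5min at an adjusted p under 0.05, and circles mark the 15 most increased and 15 most decreased protein-coding genes among those whose log2 CPM averaged 3 or more, among them Mmp10 at 3.99 and Clec12a at -3.73.

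Among protein-coding genes whose log2 CPM averaged 3 or more over the 6 samples, the 15 most increased included Mmp10, Dock8, Fhl1, Higd1a, Ero1l, Ube2ql1, Ccn2, Inpp4b, Ankrd37, Bnip3, Ankrd1, Hbegf and Tagln. Mmp10 (stromelysin 2, a matrix metalloprotease, chr9:7502352-7510240, GRCm38) was low at the first 2 time points, at 1.78, 1.22 and 1.95 CPM and 1.91, 2.30 and 2.93 CPM, and reached 36.9, 33.0 and 43.3 CPM in MEFD5min (log2 fold change 3.99 ± 0.18 (SE), adjusted p = 3.42e-11). Hbegf (heparin-binding EGF) had 34.6, 41.2 and 40.6 CPM in MEFD0, 12.5, 13.3 and 14.2 CPM in MEFD3min and 76.8, 86.4 and 83.0 CPM in MEFD5min, so it ended above its start after a fall. Fst (follistatin, which binds activins), outside the 15 for its low level, had 20.1, 20.01 and 17.5 CPM, then 0.909, 0.477 and 0.908 CPM, then 8.24, 12.5 and 6.81 CPM. It had almost vanished at day 3 and came part of the way back at day 5, with no overlap between the 3 days (log2 fold change 3.59 ± 0.27, adjusted p = 1.43e-08; against MEFD0 -1.07, adjusted p = 0.000383; edgeR). So Fst came back toward its start, while Mmp10 and Hbegf went past it. The other genes of the 15 named above also ended above MEFD0. Their log2 fold changes against MEFD0 ran from 0.64 (Inpp4b) and 0.68 (Tagln) to 3.90 (Ankrd37).

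The 15 most decreased were Clec12a, Igfbp5, Cldn1, Sort1, Kif26b, Pamr1, Syt13, Slitrk1, Stc1, Elavl2, Osr2, Adh1, F830016B08Rik, Fzd8 and Ifit3b. Igfbp5 (insulin-like growth factor binding protein 5, chr1:72857932-72874884) went from 47.0, 48.7 and 49.1 CPM in MEFD0 to 8729.8, 12628 and 7664 CPM in MEFD3min and down to 1858, 1057 and 1276 CPM in MEFD5min. Day 5 was far below day 3 and still far above day 0 (log2 fold changes -2.79 ± 0.22 and 4.86, adjusted p = 2.22e-08 and 7.24e-11, edgeR). Clec12a (a C-type lectin receptor known from myeloid cells, chr6:129342691-129365303) stood at 0.0343, 0 and 0.14 CPM, then 29.8, 26.3 and 33.8 CPM, then 2.40, 1.60 and 2.68 CPM, a fall of 3.73 on the log2 scale. The macrophage markers did not fall with it: 6 of the 12 were at 3 counts or fewer in every untreated sample, their sum ranged over 14.7 to 17.9 CPM in MEFD3min and 19.4 to 20.52 CPM in MEFD5min, and 2 of the 5 tested (Csf1r and Cd14) were higher in MEFD5min. Csf1r did not pass without MEFD5min replicate 3 or without any 1 of the MEFD3min samples, with adjusted p of 0.0625 to 0.138 (edgeR). Cldn1 (claudin 1, of tight junctions) fell from 159, 148 and 175 CPM to 28.5, 16.4 and 31.2 CPM, and Stc1 (stanniocalcin 1, a secreted hormone) from 635, 642 and 584 CPM to 164, 113 and 154 CPM. Only for Kif26b and Elavl2 of the 15 was MEFD5min/MEFD0 not a DEG, with adjusted p = 0.951 and 0.0551; the other 13 stayed above MEFD0 at day 5. F830016B08Rik, an interferon-inducible GTPase gene, and Ifit3b (whose 50-base stretches are 45.0% shared with other genes, so its reads are uncertain) belong to the interferon genes described below.

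**Figure D2:**
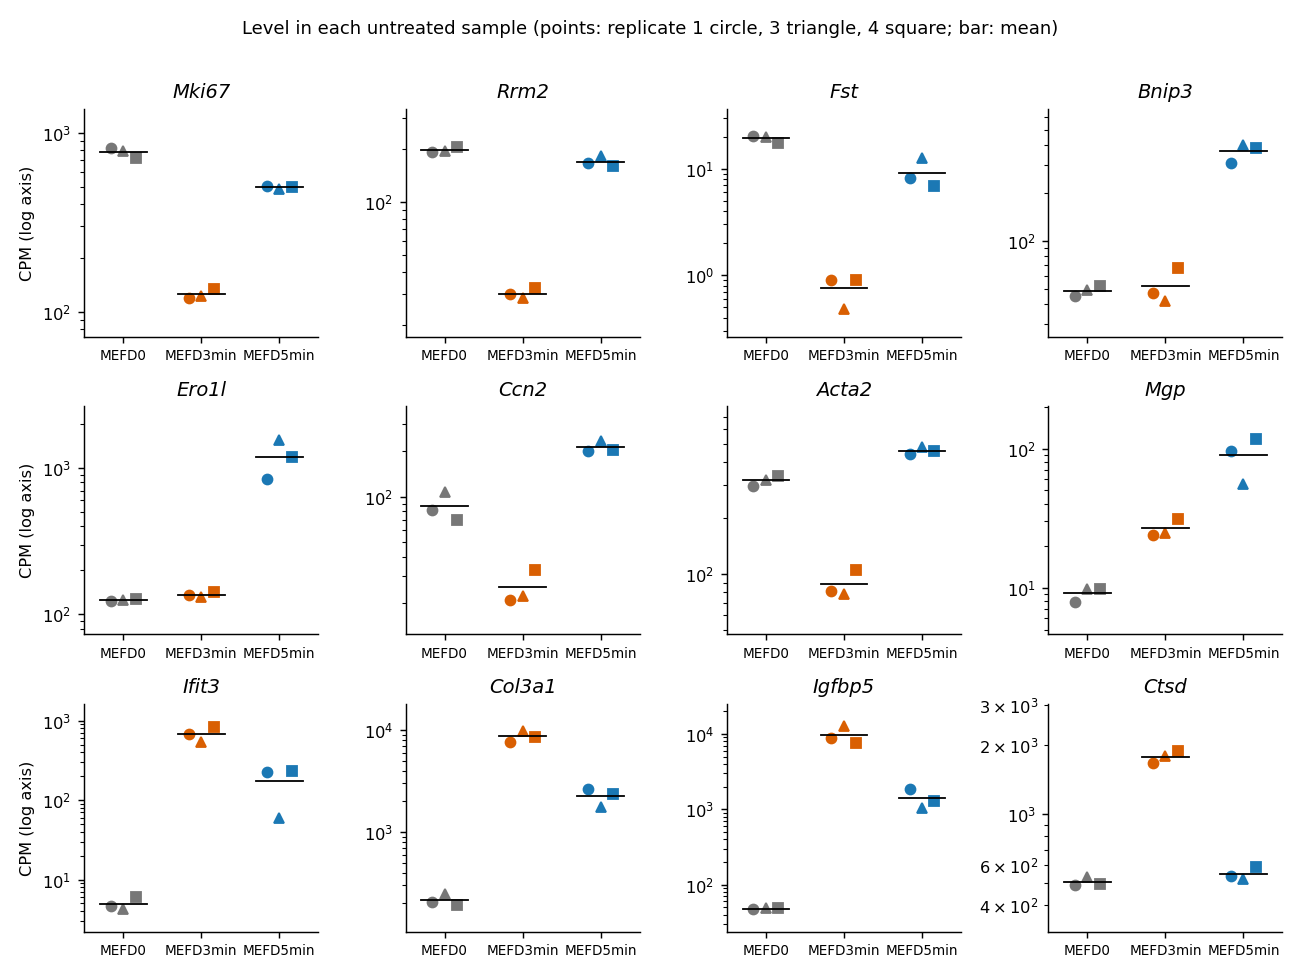
CPM on a log axis for 12 genes in each untreated sample, with circles, triangles and squares for replicates 1, 3 and 4 and a bar at the mean of 3. Mki67, Rrm2 and Fst fell to day 3 and rose to day 5, Bnip3 and Ero1l rose only after day 3, Mgp rose at both steps, and Ifit3, Col3a1, Igfbp5 and Ctsd stood highest at day 3; the triangle of MEFD5min lies lowest for Ifit3 at 60.3 CPM.

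Genes of DNA replication and mitosis rose together. Of 30 S phase genes 29 were higher in MEFD5min and none lower, and of 29 G2/M genes 29 were higher, beside 21.3% of all genes. Their median log2 fold changes were 1.56 and 1.90, after -2.11 and -2.23 between day 0 and day 3. Against the start, MEFD5min was lower in 29 of the S phase genes and 22 of the G2/M genes, beside 21.9% of all genes, with medians of -0.49 and -0.32. Most cell cycle genes thus lay at day 5 between their levels of day 3 and day 0. The summed CPM of the G2/M list was 5357, 5316 and 5255 in MEFD0, 1092, 1019.6 and 1288 in MEFD3min and 4233, 4063 and 4189.6 in MEFD5min.

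Mki67 (the proliferation antigen Ki-67) stood at 821, 785 and 719 CPM in MEFD0, 119, 123 and 133 CPM in MEFD3min and 504, 487 and 494 CPM in MEFD5min. The 3 days did not overlap, and day 5 lay between the others (log2 fold change 1.98 ± 0.08, adjusted p = 2.26e-11; against MEFD0 -0.65, adjusted p = 2.82e-06; edgeR). Rrm2, the regulated subunit of ribonucleotide reductase, which supplies deoxynucleotides, had the largest rise of the S phase list, from 29.9, 28.4 and 32.4 CPM to 167, 183 and 161 CPM, near its 194, 196 and 205 CPM of day 0. Mcm10 and Cdc6, which load and start the replication helicase, rose by 2.21 and 2.13 on the log2 scale. Aurka, the mitotic kinase of the spindle poles, rose from 15.2, 13.4 and 18.7 CPM to 67.4, 69.3 and 66.05 CPM and was then not distinguishable from its 67.3, 70.4 and 76.9 CPM of day 0 (adjusted p = 0.507). The same held for Cdk1, the kinase that drives entry into mitosis, at 221, 194 and 235 CPM on day 5 and 218, 222 and 247 CPM on day 0 (adjusted p = 0.64). Cdt1, a licensing factor of replication, was the S phase gene farthest below its start, at 37.4, 43.96 and 34.4 CPM against 75.9, 75.3 and 67.4 CPM. The exception was E2f1, the transcription factor of the list, with 59.5, 66.5 and 62.2 CPM in MEFD3min and 63.1, 61.3 and 59.9 CPM in MEFD5min, where the groups overlapped (log2 fold change -0.03, adjusted p = 0.758).

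Regulators of the cycle rose more often than they fell. Of 19 tested D cyclins and cell cycle inhibitors, 9 were higher and 4 lower, beside 21.3% of all genes higher and 21.5% lower. The falls thus lay at the share of all genes. Ccnd1 (cyclin D1) rose from 331, 340.1 and 365 CPM to 623, 619.7 and 587 CPM, whereas Ccnd3 (cyclin D3) fell from 245, 257 and 234 CPM to 179, 145 and 169 CPM. Of the inhibitors, Cdkn1a (p21) rose with the cycle genes, from 47.5, 49.2 and 48.9 CPM to 97.2, 134 and 106 CPM. Cdkn1c (p57), Gas1 and Cdkn2c (p18) fell, by 1.58, 1.05 and 0.75 on the log2 scale. Thus both inhibitors and drivers were found on either side. Ribosome biogenesis, which follows growth, rose in 22 of 24 genes with none lower (median 0.56), led by Nop56 (a core protein of small nucleolar particles) with 55.0, 51.7 and 58.2 CPM at day 3 and 131, 149.95 and 139 CPM at day 5 and by Nolc1 at 1.19 on the log2 scale. The 76 ribosomal protein genes did not follow, with 4 higher and 5 lower; the lower count was 19 without MEFD3min replicate 3, 1 without MEFD3min replicate 4, 2 without MEFD5min replicate 1 and 3 without MEFD5min replicate 3.

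These 3 G2/M promoters are shown because they hold the cell cycle homology region TTTGAA within the 250 bases before the RefSeq start (GRCm38.p6, strand of the gene, 5′ to 3′, the match in capitals), and these genes returned at day 5. The stretches are chr4:118437344-118437381 (minus), chr10:69352913-69352947 (minus) and chr9:70421696-70421741 (minus).
Cdc20: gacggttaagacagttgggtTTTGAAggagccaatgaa
Cdk1: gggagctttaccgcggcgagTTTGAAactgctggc
Ccnb2: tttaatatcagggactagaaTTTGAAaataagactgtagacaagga

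Searched on both strands, TTTGAA was present in 8 of the 25 G2/M promoters in the table (32%) and 3 of 24 S phase promoters (12.5%), against 16.3% of all 27025 promoters, and in 4 of 9 promoters of interferon-inducible GTPases (44.4%), a list that fell. CCAAT, the NF-Y box, was present in 19 of the 25 (76%) and 14 of the 24 (58.3%), against 34.4% of all; it was also found in 15 of 16 promoters of cholesterol synthesis and uptake genes, a list of which 1 gene rose. Cdc20 (the activator of the anaphase-promoting complex) rose from 20.7, 20.8 and 24.1 CPM to 69.2, 73.6 and 67.2 CPM and Ccnb2 (cyclin B2) from 23.5, 24.4 and 24.8 CPM to 83.6, 77.1 and 84.6 CPM. A match describes the letters of a promoter and not binding.

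Glycolysis and hypoxia response genes went beyond their start. Of 26 genes 23 were higher in MEFD5min than in MEFD3min and none lower (median 1.51), and 22 were also higher in MEFD5min than in MEFD0, beside 24.5% of all genes (median 1.13). From day 0 to day 3 the list had gone both ways, with 8 higher and 12 lower, beside 31.4% and 28.6% of all genes. Its summed CPM was 6898, 7472 and 7540.4 in MEFD0, 4757, 4809 and 5449 in MEFD3min and 11935, 13544 and 13198 in MEFD5min, so that the 3 day 5 samples lay above all others.

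Ero1l, the oxidase of the endoplasmic reticulum that drives disulfide bond formation (chr14:45283087-45318771, minus strand), was flat at 124, 126 and 127 CPM in MEFD0 and 136, 132 and 142 CPM in MEFD3min and then stood at 842, 1545 and 1187 CPM in MEFD5min (log2 fold change 3.12 ± 0.16, adjusted p = 1.04e-10, edgeR). Replicate 3 was the highest and replicate 1 the lowest of the day 5 samples, and all lay far above the earlier samples.

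Bnip3, a mitochondrial protein of mitophagy, had 44.8, 48.8 and 51.8 CPM, then 46.8, 41.8 and 67.1 CPM, then 309.7, 403 and 386 CPM (log2 fold change 2.82 ± 0.16); 22.3% of its exon bases lie under an antisense gene and 16.5% of its 50-base stretches are shared with other genes. Ankrd37, a known HIF1 target, rose at both steps, from 2.37, 2.52 and 3.77 CPM to 5.14, 6.32 and 5.78 CPM to 35.8, 46.6 and 47.5 CPM, with 26.4% of its exon bases under an antisense gene. Higd1a, a hypoxia-inducible mitochondrial protein, had fallen from 34.9, 34.5 and 38.9 CPM to 10.3, 9.32 and 14.6 CPM and then reached 80.8, 112 and 113 CPM. These 3 genes reached different day 5 levels by different paths.

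Most enzymes of glycolysis were lower at day 3 than at day 0 and above day 0 at day 5. Ldha (lactate dehydrogenase A) went from 691, 727 and 798 CPM to 310.4, 281 and 403 CPM and then to 1229, 1247 and 1328 CPM. Pfkp (platelet phosphofructokinase, the committed step) went from 54.2, 54.8 and 49.5 CPM to 17.6, 17.3 and 15.8 CPM and 70.8, 89.1 and 78.5 CPM. Pgk1 (phosphoglycerate kinase) showed 50.5, 43.1 and 65.0 CPM and 216, 234 and 247 CPM, although 53.9% of its 50-base stretches are shared with other sequences. In each case day 5 lay above day 0 as well. Slc2a1 (the glucose transporter GLUT1) rose by 1.65 and Pdk1, which blocks entry of pyruvate into the mitochondrion, by 1.89 on the log2 scale. By contrast Eno1 and Pkm were not distinguishable from their start, with log2 fold changes of 0.15 and 0.06 against MEFD0 (adjusted p = 0.194 and 0.62). Slc16a3, Egln3 and Car9 did not pass the test; Egln3, the prolyl hydroxylase that is itself a HIF1 target, had already gone from 14.9, 19.7 and 18.2 CPM to 117, 129 and 139 CPM by day 3 and stood at 171, 129 and 172 CPM at day 5, with overlapping groups (log2 fold change 0.29, adjusted p = 0.0623). It passed without MEFD5min replicate 3 (0.41, adjusted p = 0.00919), without MEFD3min replicate 4 (0.35, adjusted p = 0.0358) and with total counts (0.39, adjusted p = 0.00826; edgeR). Adm (adrenomedullin), Vegfa and P4ha1 (a collagen prolyl hydroxylase) were higher at both steps: Adm went from 5.90, 9.17 and 6.42 CPM to 45.3, 51.3 and 48.6 CPM to 86.9, 83.4 and 87.5 CPM. Nuclear genes of oxidative phosphorylation moved little, with 3 of 35 higher and 4 lower; 8 were higher without MEFD3min replicate 4, and 8 also with total counts.

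Promoters of 4 of these genes are shown with the hypoxia core ACGTG, a motif chosen after the data were seen (RefSeq, GRCm38.p6, strand of the gene, 5′ to 3′, matches on either strand in capitals). They are chr7:138909589-138909633 (minus), chr8:45999851-45999876 (minus), chrX:106186949-106186993 (plus) and chr7:46845750-46845794 (plus).
Bnip3: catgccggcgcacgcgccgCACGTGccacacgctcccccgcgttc
Ankrd37: gcacatgtcagtgtttgggtACGTGa
Pgk1: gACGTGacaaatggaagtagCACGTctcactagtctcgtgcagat
Ldha: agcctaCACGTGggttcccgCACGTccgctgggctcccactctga

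The core was present in 12 of the 24 promoters of the list that the table holds (50%), against 16.6% of all promoters. It was also present in 32% of the G2/M promoters, 10 of 16 clock gene promoters (62.5%) and 6 of 14 promoters of endoplasmic reticulum chaperones (42.9%), of which more fell than rose. In Bnip3 and Ldha it lies inside CACGTG, which reads the same on both strands and is also the E-box.

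Contractile genes and genes of the serum and YAP response also rose, but in part. Of 20 tested contractile genes 11 were higher and 1 (Vcl) lower in MEFD5min (median 0.56), beside 21.3% and 21.5% of all genes. Before that, 11 had been lower at day 3 than at day 0, beside 28.6% of all genes. Acta2 (smooth muscle actin, the mark of myofibroblasts) stood at 297, 322 and 338 CPM in MEFD0, 81.4, 77.9 and 106 CPM in MEFD3min and 441, 485 and 458 CPM in MEFD5min. It thus ended above its start (log2 fold change 0.53, adjusted p = 0.00106; MEFD5min/MEFD3min 2.38 ± 0.12, adjusted p = 1.23e-10; edgeR). Tagln (transgelin) rose by 2.60 on the log2 scale, with 67.9% of its exon bases under an antisense gene. Tpm1 (tropomyosin 1) and Cald1 (caldesmon) rose from 465, 466 and 546 CPM and 813, 768 and 842 CPM to 906, 993 and 944 CPM and 1195, 1219 and 1198 CPM. Vcl (vinculin, of focal adhesions) went the other way, from 269, 321 and 255 CPM to 206, 193 and 186 CPM, and Actn1 and Mylk had log2 fold changes of 0.00 and -0.09 that did not pass the test. The muscle regulators Myod1, Myog and Myf5 were at 0 in all 9 samples, and the summed skeletal muscle markers were at 0.752 to 0.955 CPM at day 3 and 2.38 to 3.38 CPM at day 5. The 6 pericyte markers summed to 103 to 201 CPM and 58.5 to 88.0 CPM, with 2 (Rgs5 and Mcam) of 4 tested higher and 1 (Cspg4) lower. Rgs5 did not pass without MEFD5min replicate 1 or without any 1 of the MEFD3min samples, with adjusted p of 0.0541 to 0.205 (edgeR). The CArG box of serum response factor was found in 4 of 17 contractile promoters (23.5%) and in 1.38% of all.

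Of 12 YAP targets 6 were higher and 1 (Crim1) lower, beside 21.3% and 21.5% of all genes. The count of lower targets was 0 without MEFD3min replicate 3 or MEFD5min replicate 4, and 2 without MEFD3min replicate 4. Ccn2 (connective tissue growth factor, chr10:24595442-24598683) had 81.8, 107 and 70.3 CPM in MEFD0, 21.0, 22.3 and 32.8 CPM in MEFD3min and 199, 232 and 202 CPM in MEFD5min (log2 fold change 3.06 ± 0.23, adjusted p = 1.34e-08), with 23.2% of its exon bases under an antisense gene. Ankrd1, a muscle ankyrin repeat protein, had 59.8, 58.1 and 75.6 CPM and 394, 406 and 409 CPM at days 3 and 5 and was also over its 187, 206 and 181 CPM of day 0. Both were lowest in MEFD3min and highest in MEFD5min without overlap. The YAP-binding factor Tead1 did not pass the test (0.27, adjusted p = 0.186), except without MEFD3min replicate 3 (0.50, adjusted p = 0.00609, edgeR). Among 17 immediate early genes 8 rose and 3 fell: Fosl1 (57.2% of exon bases under an antisense gene) went from 17.7, 19.9 and 14.5 CPM to 60.3, 88.7 and 63.4 CPM, Jun from 87.8, 90.7 and 83.8 CPM to 213, 239 and 206 CPM and Myc from 23.3, 29.7 and 23.0 CPM to 58.8, 63.4 and 52.9 CPM, whereas Egr1, the early growth response factor, fell from 72.6, 98.0 and 68.9 CPM to 51.6, 50.4 and 55.3 CPM. The 3 falls lay near the share of all genes, and the lower count was 1 without MEFD5min replicate 1. Jun and Myc, which turn serum signals into growth, were at day 5 not distinguishable from day 0 (adjusted p = 0.892 and 0.315).

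Ligands and receptors moved both ways. Beside Hbegf, Met, the receptor of hepatocyte growth factor, went from 17.3, 16.8 and 19.6 CPM to 84.0, 106 and 82.9 CPM, its level of day 0 (adjusted p against MEFD0 = 0.348). Lif (leukaemia inhibitory factor) went from 4.29, 4.18 and 3.67 CPM to 23.7, 24.5 and 24.5 CPM and Ptgs2 (cyclooxygenase 2) from 39.1, 30.9 and 39.0 CPM to 188, 222 and 223 CPM. Tnfaip3 (A20, which restrains NF-kB) rose by 2.42 on the log2 scale. Angpt1 (angiopoietin 1) fell, from 13.7, 12.4 and 17.7 CPM to 3.71, 2.76 and 3.08 CPM. In all, 9 of 25 growth factors and receptors rose and 7 fell, beside 21.3% of all genes higher and 21.5% lower. Of 17 chemokine and NF-kB genes 5 rose and 3 fell (5 without MEFD3min replicate 3 or MEFD5min replicate 4). The falls of the first list and both counts of the second thus lay near the shares of all genes. The chemokines Ccl5, Cxcl10 and Ccl2 did not pass the test, with log2 fold changes of -0.26, -0.27 and -0.46. Ccl2 passed without MEFD3min replicate 3 (-0.59) or MEFD5min replicate 4 (-0.70), and Cxcl10 stood at 0.01 without MEFD5min replicate 3. Of 18 antioxidant genes 11 rose and none fell (1 fell without MEFD5min replicate 1), with Gclc (the rate-limiting enzyme of glutathione synthesis) at 1.32.

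Among 20 ATF4 targets and amino acid synthesis genes 9 rose and 2 fell, beside 21.3% and 21.5% of all genes. There was 1 fall without MEFD3min replicate 1 or MEFD5min replicate 3. Psat1 (phosphoserine aminotransferase) had 943, 943 and 1013 CPM in MEFD0, 212, 188 and 226 CPM in MEFD3min and 488, 469 and 476 CPM in MEFD5min. Phgdh, the first enzyme of serine synthesis, had 339, 351 and 359 CPM, then 103, 98.3 and 114 CPM, then 169, 198 and 172 CPM, and Mthfd2, of the mitochondrial folate cycle, rose by 1.03 on the log2 scale. All 3 remained below day 0 at day 5 (log2 fold changes -1.02, -0.96 and -0.52). Atf5, a factor of the same stress response, fell from 189, 202 and 161 CPM to 84.6, 71.8 and 75.5 CPM. The endoplasmic reticulum chaperones went the other way, with 9 of 16 lower and 2 higher, among them Dnajb9 (a cochaperone of BiP) and Xbp1 (the factor of the unfolded protein response) at -0.59 and -0.39.

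Clock genes rose more often than they fell. Of 18 genes 7 rose and 2 fell, beside 21.3% of all genes higher and 21.5% lower. The repressors Nr1d1 (REV-ERB alpha), Per2 and Cry1 rose, Nr1d1 from 3.42, 5.19 and 2.49 CPM to 9.38, 8.53 and 6.76 CPM and Per2 from 1.00, 1.26 and 0.572 CPM to 2.35, 1.67 and 1.57 CPM, while the output factor Dbp fell from 16.04, 14.1 and 15.4 CPM to 6.90, 6.89 and 8.49 CPM and the activator Rora by 0.82 on the log2 scale. The hours at which samples were taken are not given in the sources used here, so days and hours cannot be told apart. Of 19 Wnt pathway genes 5 rose and 5 fell, both near the shares of all genes, with 3 rises without MEFD3min replicate 1. The receptor Fzd1 fell from 36.3, 46.8 and 31.3 CPM to 12.9, 13.7 and 10.98 CPM and Fzd2 by 1.22 on the log2 scale, and the ligand Wnt5a fell from 259, 276 and 263 CPM to 201, 165 and 183 CPM. Of 10 osteogenic and chondrogenic genes 5 rose and 1 fell, with 3 rises without MEFD3min replicate 1 or MEFD5min replicate 1, and Sox9 (the factor of cartilage) rose from 23.2, 27.7 and 22.4 CPM to 48.4, 57.9 and 42.6 CPM.

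**Figure D3:**
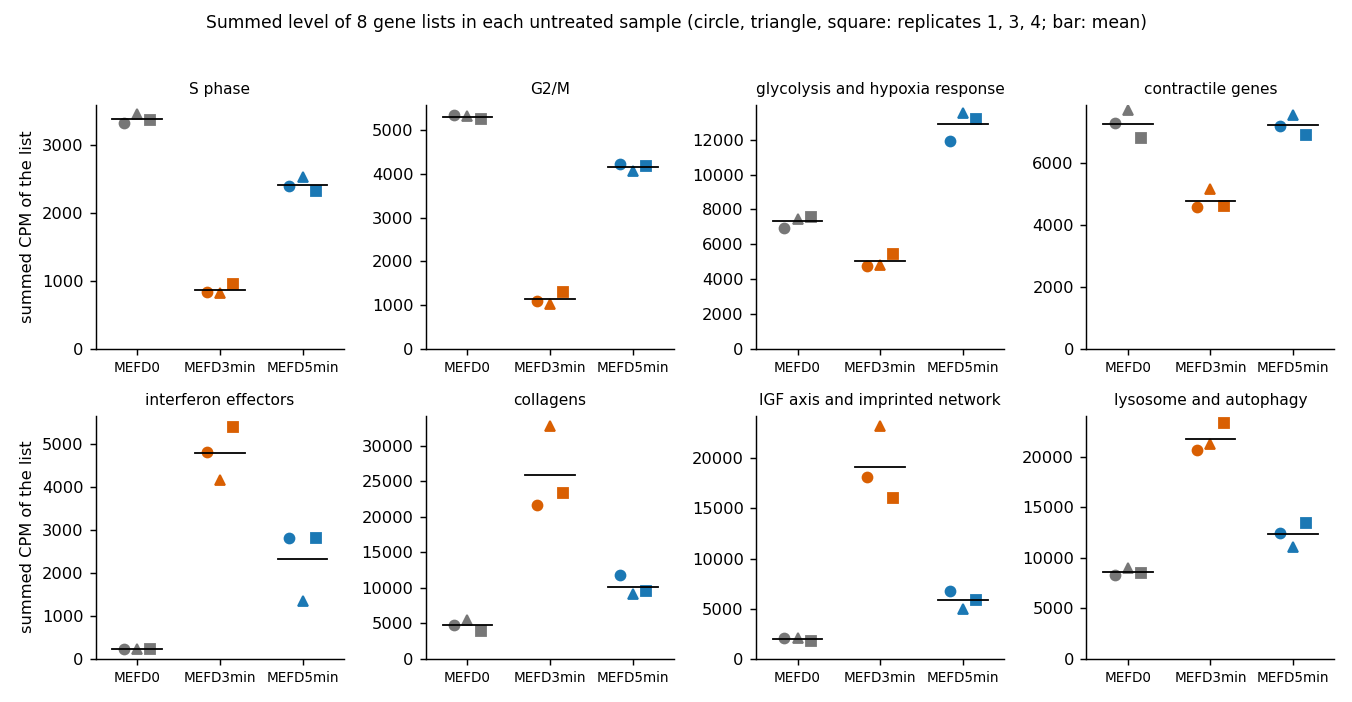
Summed CPM of 8 gene lists in each untreated sample, with the y axis from 0, circles, triangles and squares for replicates 1, 3 and 4 and a bar at the mean of 3. The S phase and G2/M sums at day 5 lie between those of day 3 and day 0, the glycolysis and hypoxia sum lies above both, and the interferon, collagen, IGF axis and lysosome sums lie below day 3 and above day 0 in every sample.

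Interferon genes, which were at their highest at day 3, fell without going back to the start. Of 28 interferon effectors 23 were lower and 2 higher in MEFD5min, beside 21.5% of all genes lower, with a median log2 fold change of -0.86. Against MEFD0, 28 of 28 were higher at day 3 and again 28 of 28 at day 5, with medians of 6.65 and 5.62, or 6.03 and 5.27 counting the 4 genes at 3 counts or fewer in every MEFD0 sample at their lower bounds. The summed CPM was 225, 219 and 231 in MEFD0, 4829, 4168 and 5414 in MEFD3min and 2811, 1353 and 2814 in MEFD5min. MEFD5min replicate 3 was the lowest of its group, and without it 22 were lower and 2 higher, with a median of -0.57.

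Ifit3, an effector of the Ifit family (chr19:34583531-34588731), stood at 4.60, 4.29 and 6.002 CPM in MEFD0, 678, 545 and 830.4 CPM in MEFD3min and 222, 60.3 and 233 CPM in MEFD5min. Its log2 fold change was -1.99 ± 0.32 (adjusted p = 9.06e-05, edgeR), and -1.59 without MEFD5min replicate 3, with 51.2% of its 50-base stretches shared. Ifit1 of the same family stood at 12.5, 12.6 and 13.4, then 623, 487 and 822, then 220.0, 87.0 and 234 CPM. Isg15, a ubiquitin-like modifier, went from 231, 186 and 305 CPM to 107, 35.8 and 125 CPM, with 0.686, 0.742 and 1.06 CPM at day 0. The log2 fold changes of Ifit1 and Isg15 were -1.83 and -1.42, and -1.50 and -1.05 without MEFD5min replicate 3. In all of these genes the 3 samples of day 5 lay below those of day 3 and above those of day 0, and replicate 3 was the lowest of day 5. Oas2, a sensor of double-stranded RNA, was at 3 counts or fewer in every MEFD0 sample and still at least 434-fold higher at day 5. Exceptions went upward: Oas3 went from 5.95, 6.99 and 4.67 CPM to 23.2, 8.22 and 16.5 CPM and Ifi27 from 84.4, 78.5 and 95.8 CPM to 116, 126 and 131 CPM. Mx1, Usp18 and Oasl1 did not pass the test (-0.40, -0.51 and 0.01); Mx1 passed without MEFD5min replicate 1 (-0.78) and Usp18 without MEFD3min replicate 3 or without MEFD5min replicate 1 or 4 (-0.60, -0.65 and -0.68).

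The interferon-inducible GTPases, which attack vacuoles of intracellular parasites, fell in 12 of 14 genes with none higher (median -1.43, and -1.10 without MEFD5min replicate 3). Gbp2 stood at 2.26, 2.68 and 3.21 CPM, then 96.1, 75.1 and 119 CPM, then 38.2, 18.8 and 42.3 CPM (log2 fold change -1.54 ± 0.25, adjusted p = 8.31e-05; -1.26 without replicate 3). Iigp1 showed 146, 121 and 186 CPM at day 3 and 67.9, 25.7 and 76.4 CPM at day 5 (-1.41, and -1.07 without replicate 3). Gbp6 had the largest fall, -1.89, with 70.7% of its stretches shared with related genes. Upstream, the transcription factors Stat2 and Irf9 fell by 0.86 and 0.84 on the log2 scale, and Irf7, which amplifies the response, from 69.1, 80.6 and 72.2 CPM to 38.8, 18.3 and 33.2 CPM. Without MEFD5min replicate 3 the log2 fold changes of Stat2, Irf9 and Irf7 were -0.64, -0.68 and -1.04. The receptor genes Ifnar1 and Ifnar2 fell by 0.48 and 0.50, and of 16 tested signalling genes 9 fell and 2 rose (1 without MEFD5min replicate 3). Ifnb1, the ligand interferon beta, was at 0.0313, 0.112 and 0.0336 CPM and 0.14, 0.0389 and 0.162 CPM and was too low to be tested.

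Antigen presentation fell less by its median. Of 13 genes 9 were lower and 1 higher (2 without MEFD5min replicate 3), with a median of -0.46, and 13 of 13 were still higher than in MEFD0. Of these, Tapbp (tapasin, which loads peptide on class I) fell from 144, 191 and 151 CPM to 68.6, 43.4 and 49.3 CPM and H2-K1, a class I heavy chain, from 496, 529 and 557 CPM to 423, 355 and 461 CPM (-0.35, adjusted p = 0.0115). H2-K1 did not pass without MEFD5min replicate 3 (-0.25, adjusted p = 0.0668, edgeR). B2m, the class I light chain, had 3120.4, 2882 and 3773 CPM and 2835, 2573 and 3453 CPM with overlapping groups (adjusted p = 0.406). Nlrc5, the transactivator of class I genes, rose from 62.4, 73.3 and 48.0 CPM to 135, 118 and 133 CPM. Of 10 complement genes 5 fell and 1 rose, among them C1s1 (a C1 protease) from 269, 293 and 294 CPM to 122, 111 and 136 CPM, with 8.75, 8.43 and 6.78 CPM at day 0.

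The interferon promoters shown were picked among genes that were lower at day 5 and whose promoters hold the interferon response element (GAAA, any 2 bases, GAAA). The element or its complement is in capitals (RefSeq, GRCm38.p6, strand of the gene, 5′ to 3′). In Isg15, overlapping matches run together. The stretches are chr19:34640784-34640833 (plus), chr19:34583387-34583436 (plus), chr4:156200855-156200904 (minus), chr12:26456543-26456592 (minus) and chr3:142620584-142620633 (plus).
Ifit1: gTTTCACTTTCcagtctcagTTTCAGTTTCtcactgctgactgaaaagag
Ifit3: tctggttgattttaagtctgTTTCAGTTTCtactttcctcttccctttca
Isg15: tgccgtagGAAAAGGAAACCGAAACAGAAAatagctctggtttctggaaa
Rsad2: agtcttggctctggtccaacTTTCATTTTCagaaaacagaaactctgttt
Gbp2: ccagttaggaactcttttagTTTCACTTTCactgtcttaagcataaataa

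The element was present in 8 of 19 interferon effector promoters in the table (42.1%) and in 9 of 9 GTPase promoters (100%), against 3.04% of all 27025 promoters. Rsad2 (viperin, an antiviral enzyme) had 0.137, 0.159 and 0.14 CPM at day 0, 52.8, 51.4 and 48.9 CPM at day 3 and 30.2, 10.5 and 27.8 CPM at day 5, the same order as Ifit1, Isg15 and Gbp2.

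Collagens and other matrix genes fell from the high level of day 3. Of 18 collagen genes 14 were lower and 1 higher in MEFD5min (median -1.01), beside 21.5% and 21.3% of all genes. The higher count was 2 without MEFD3min replicate 4, without MEFD5min replicate 3 or with total counts. Without MEFD3min replicate 3, 12 were lower and the median was -0.77. Before that, 18 of 18 had been higher at day 3 than at day 0 (median 2.05), and 17 were still above MEFD0 at day 5. Col3a1 (the chain of type III collagen) had 207, 247 and 191.6 CPM in MEFD0, 7638, 9862 and 8542 CPM in MEFD3min and 2616, 1769 and 2336 CPM in MEFD5min (log2 fold change -1.95 ± 0.15, adjusted p = 2.12e-08, edgeR). Col1a1 and Col1a2, the chains of type I collagen, had 2230.4, 4414 and 2098 CPM and 4935, 8190.3 and 5526 CPM at day 3, and 1589, 1177 and 1102 CPM and 3010.4, 2288 and 2234 CPM at day 5. MEFD3min replicate 3 was the highest sample in each of these genes, and the groups did not overlap. The log2 fold changes of Col1a1, Col1a2 and Col3a1 were -1.18, -1.31 and -1.95, and -0.75, -1.06 and -1.85 without that sample. Col6a3 was the collagen back at its start (-0.03 against MEFD0, adjusted p = 0.925). Col12a1, a collagen that binds along fibrils, rose at both steps, from 24.7, 24.9 and 14.99 CPM to 65.4, 102 and 62.7 CPM to 171, 154 and 157 CPM.

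Other matrix proteins were split. Of 27 tested matrix glycoproteins and crosslinkers 12 fell and 6 rose. Fbn1 (fibrillin 1, of microfibrils) fell from 797, 1548 and 927 CPM to 347, 252 and 265 CPM and Dcn (decorin, a small proteoglycan) from 2745, 2503 and 3241 CPM to 1689.8, 1090.0 and 2023 CPM, against 13.8, 14.5 and 17.6 CPM at day 0. Fn1 (fibronectin) returned to its start, from 3874, 7941 and 3877 CPM to 2470.2, 2339.9 and 1983 CPM (adjusted p against MEFD0 = 0.962). The log2 fold changes of Fbn1 and Fn1 were -1.92 and -1.21, and -1.58 and -0.78 without MEFD3min replicate 3, their highest sample. On the other side, Lox (lysyl oxidase, which crosslinks collagen) rose from 43.3, 50.3 and 53.6 CPM to 149, 199 and 156 CPM and Tnc (tenascin C) from 281, 434 and 302 CPM to 653, 624 and 545 CPM. Fbln2 (fibulin 2) returned from 269.7, 411 and 293 CPM to 726, 813 and 624 CPM. Postn (periostin) had 425, 357 and 441 CPM and 587, 315 and 679 CPM and did not pass (log2 fold change 0.37, adjusted p = 0.138); without MEFD5min replicate 3 it did (0.63, adjusted p = 0.00113, edgeR), as it did with total counts (0.47, adjusted p = 0.0499).

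The proteases followed the same division. Of 23 proteases and inhibitors 13 fell and 5 rose. Mmp14 (a membrane-bound metalloprotease) fell from 855, 1165 and 939 CPM to 296, 246 and 261 CPM, its level of day 0 (adjusted p = 0.345), and Adamts2, which trims procollagen, from 42.4, 58.2 and 43.1 CPM to 15.5, 12.4 and 12.9 CPM. The secreted stromelysin Mmp3 and collagenase Mmp13 continued upward, Mmp3 from 83.5, 87.1 and 102 CPM to 729, 644 and 916 CPM to 1365, 1143 and 1462 CPM and Mmp13 from 3.94, 3.68 and 3.01 CPM to 26.5, 23.7 and 29.6 CPM to 47.1, 39.4 and 49.8 CPM. Of the TGF-beta and BMP pathway 7 rose and 10 fell of 23 tested, beside 21.3% and 21.5% of all genes. Its ligand Tgfb2 fell from 140.1, 164 and 148 CPM to 55.6, 39.0 and 44.3 CPM and its receptor Tgfbr2 by 1.07 on the log2 scale, while Inhba (the activin A subunit) rose from 38.1, 32.9 and 33.4 CPM to 107, 85.9 and 106 CPM. Mgp (matrix Gla protein, an inhibitor of calcification) rose at both steps, from 7.92, 9.78 and 9.71 CPM to 24.1, 24.6 and 31.3 CPM to 95.5, 55.2 and 117 CPM.

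The IGF axis and imprinted genes, a network of fetal growth, fell in 14 of 18 genes with 1 higher (median -1.15, after 2.19 from day 0 to day 3). H19, the imprinted noncoding RNA, had 0.96, 1.48 and 3.52 CPM in MEFD0, 1620.0, 1377 and 1704 CPM in MEFD3min and 638, 415 and 653 CPM in MEFD5min. Igf2, the fetal growth factor beside it, had 0.24, 0.265 and 1.84 CPM, then 2300.2, 2621 and 2388 CPM, then 1098, 710.2 and 990.2 CPM, with 61.2% of its stretches shared with other annotated genes. Igf1 fell from 119.9, 100.1 and 119 CPM to 51.9, 29.1 and 52.8 CPM. All 3 stayed far above day 0. Igf2r and the noncoding Meg3 fell by 1.44 and 0.96 on the log2 scale, Igf2r to its starting level (adjusted p = 0.777), and Meg3 in MEFD3min replicate 4 stood at 690.3 CPM, beside 701, 605 and 642 CPM at day 5. The preadipocyte and progenitor genes fell in 7 of 11 with 1 higher (Thy1), among them Ebf2 (a factor of adipocyte precursors) from 83.9, 91.8 and 86.6 CPM to 34.7, 23.0 and 32.6 CPM, Ly6a (Sca-1) from 46.8, 39.9 and 59.8 CPM to 18.5, 11.6 and 19.1 CPM and Dlk1 (Pref-1) from 43.2, 61.3 and 42.5 CPM to 26.3, 19.7 and 20.4 CPM.

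Lysosome and autophagy genes fell in 23 of 26 with none higher (median -0.76), beside 21.5% of all genes lower. They had risen in 20 of 26 from day 0 to day 3. Ctsd (cathepsin D, chr7:142375911-142388038) had 492, 532 and 498 CPM, then 1663, 1784 and 1883 CPM, then 539, 521 and 586 CPM, a return to the start within the test (log2 fold change -1.69 ± 0.09, adjusted p = 1.51e-10; against MEFD0 adjusted p = 0.294; 32.4% of its stretches shared). Ctsl (cathepsin L) fell only in part, from 8510.5, 8067 and 9822 CPM to 5516, 4466 and 6274 CPM with 1857, 2039.6 and 2029 CPM at day 0. Others ended below the start, such as Lamp1 (a membrane protein of the lysosome) at 1057, 1163 and 1059.9 CPM, then 1022, 1143 and 1150.0 CPM, then 561, 582 and 539.5 CPM. Thus 8 genes of the list were above and 11 below MEFD0 at day 5. Txnip, a FoxO and glucose-responsive inhibitor of glucose uptake, went from 21.3, 24.7 and 22.7 CPM to 445, 429 and 462 CPM and then 272, 249.9 and 295 CPM, and 7 of 13 FoxO targets fell and 3 rose.

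Some genes that had fallen by day 3 did not come back. Of 23 tested cholesterol synthesis and uptake genes 19 were lower at day 3 than at day 0, 1 was higher and 6 lower at day 5 than at day 3, and 23 of 23 were below MEFD0 at day 5 (median -0.90). The median of MEFD5min/MEFD3min was -0.10, and 0.01 with total counts. Insig1, which retains the sterol sensor in the endoplasmic reticulum, stood at 186, 206 and 187 CPM in MEFD0, 84.3, 95.4 and 88.6 CPM in MEFD3min and 89.5, 88.7 and 93.7 CPM in MEFD5min. Plin4, a lipid droplet coat protein, fell from 18.0, 20.4 and 14.0 CPM to 0.219, 0.253 and 0.135 CPM and stayed at 0.251, 0.234 and 0 CPM. Of 16 adipocyte genes that passed the filter over all 5 conditions, 1 was higher and 4 lower, beside 21.3% and 21.5% of all genes. However, 3 of the 16 had 3 counts or fewer in every MEFD3min sample and 7 in every MEFD5min sample. A common direction can therefore hardly be read from these counts. Fabp4 stood at 5.20, 6.51 and 6.66 CPM and 6.54, 6.78 and 7.43 CPM, and Adipoq (adiponectin) was above 3 counts only in MEFD3min replicate 3 of the untreated samples. The lower count was 2 without MEFD3min replicate 3 or MEFD5min replicate 3 and 1 without MEFD5min replicate 1 or 4, and the higher count was 0 without MEFD3min replicate 4 or MEFD5min replicate 3. Mitochondrially encoded transcripts fell in 7 of 13 genes, but their sum was spread at day 3 (31732, 23922 and 42631 CPM) over the level of day 5 (22278, 19756 and 24540.0 CPM), and the count was 4 without MEFD3min replicate 4 or MEFD5min replicate 3 and 11 without MEFD3min replicate 3.

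**Figure D4:**
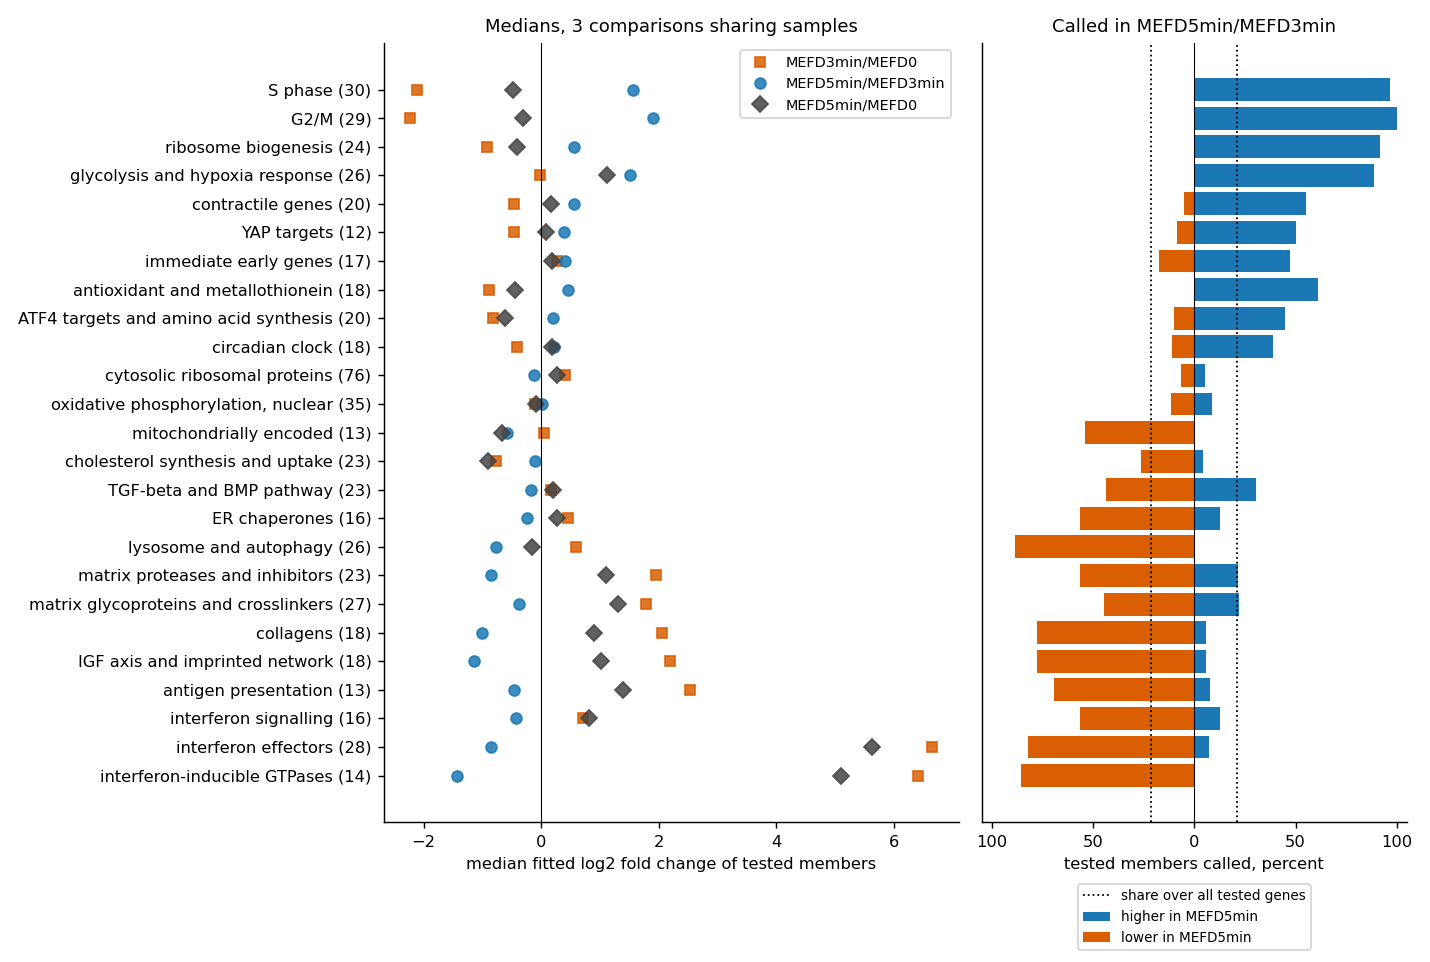
Left, the median fitted log2 fold change of the tested members of 25 gene lists (number tested in brackets) in MEFD3min/MEFD0 (squares), MEFD5min/MEFD3min (circles) and MEFD5min/MEFD0 (diamonds), 3 comparisons that share samples. Right, the percent of members called higher or lower in MEFD5min/MEFD3min, with dotted lines at 21.5% lower and 21.3% higher over all tested genes; the S phase, G2/M, ribosome biogenesis, glycolysis and antioxidant lists have members called higher alone and the lysosome, GTPase and mitochondrially encoded lists members called lower alone.

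The last comparison asked whether the day 3 to day 5 change of untreated cells differed from that of treated cells over the same days, MEFD5plu/MEFD3plu. It did so in 7754 genes (48.5%), 3622 (22.6%) of them with the higher change in untreated cells and 4132 (25.8%) with the lower (interaction term, edgeR, adjusted p under 0.05). The interferon genes were the clearest case: all 28 effectors, 14 of 14 GTPases and 13 of 13 antigen presentation genes had the lower change in untreated cells. In treated cells Ifit1 had a mean of 6.97 ± 0.142 CPM (SD, n = 3) at day 3 and 1249.9 ± 48.1 CPM at day 5, while in untreated cells the means were 644 ± 168 CPM and 180.5 ± 81.3 CPM. From day 3 to day 5 the means thus went down in untreated cells and up in treated cells. In the treated cells this followed the replacement of the mixture by growth medium. The immediate early genes had the higher change in untreated cells in 14 of 17, and ribosome biogenesis genes in 17 of 24, with none lower in either list. Of 29 G2/M genes 13 had the higher change in untreated cells, and for 16 no difference passed the test (median interaction 0.31). The S phase genes differed more, with the higher change in untreated cells in 20 of 30 and the lower in 3 (median interaction 0.82). Mki67 had a mean of 132 ± 8.07 CPM in MEFD3plu and 320.2 ± 5.06 CPM in MEFD5plu. Bnip3 had 131 ± 19.5 CPM in MEFD3plu and 646 ± 45.2 CPM in MEFD5plu, and the 2 changes could not be told apart (interaction 0.51, adjusted p = 0.0545), whereas for Ero1l they differed, with 771 ± 34.6 CPM and 644 ± 33.5 CPM in treated cells (interaction 3.38, adjusted p = 1.25e-09). Fst had 4.71 ± 0.275 CPM and 2.65 ± 0.734 CPM in treated cells (interaction 4.42, adjusted p = 4.43e-08).

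**Figure D5:**
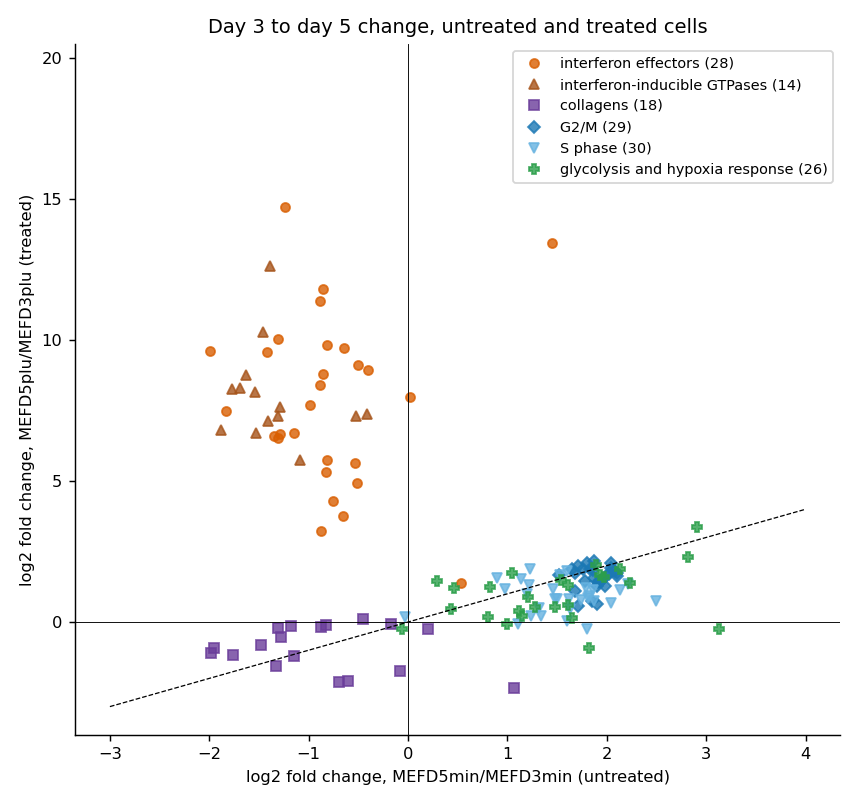
Fitted log2 fold change from day 3 to day 5 in untreated cells (x axis, MEFD5min/MEFD3min) and treated cells (y axis, MEFD5plu/MEFD3plu) for the members of 6 lists, with the dashed line marking equal change. Interferon effectors (28) and GTPases (14) all lie above the line, in treated cells with values that depend on the prior count where MEFD3plu held 3 counts or fewer, and the G2/M genes (29) lie near it.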

How the data were processed

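RNA was sequenced from 3 samples for each of 5 conditions, and the authors deposited raw read counts per gene, without normalization. The submitters' processing notes name TopHat2 2.1.0, HTSeq, DESeq2 and the builds GRCm38 and mm10. The GEO labels name a TruSeq RNA kit and the methods a stranded one, so whether counting used strand is not settled here, and the annotation release is not given in the sources used here. Gene names and positions were taken from GENCODE on GRCm38, which held 46091 of the 46603 gene identifiers. Counts were tested in edgeR 4.0.16 (limma 3.58.1, R 4.3.3) with glmQLFit and glmQLFTest on all 15 samples, with 1 mean per condition, TMM scaling and filterByExpr, which kept 15997 genes. P-values were adjusted over all tested genes by the Benjamini-Hochberg method, and a gene was called at an adjusted p under 0.05. CPM values use TMM-scaled library sizes, and genes that had 3 counts or fewer in all libraries of a group were held to be at the floor, against which their folds are lower bounds that cover counting error only. The steps were tested on simulated counts.

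The members of the 47 gene lists (858 genes) and the comparisons were chosen with earlier results of these data known. Named genes were the 15 most increased and 15 most decreased protein-coding genes that were called, did not overlap between the days and averaged a log2 CPM of 3 or more; in each list the 3 most increased and 3 most decreased called members averaging a log2 CPM of 1 or more; and other list members with their values. Not every gene that the rule admits is named, and some results are not reported here. Motifs were searched on both strands in the 250 bases before the start in RefSeq promoters of GRCm38.p6 with Python 3.11.15 (pandas 2.3.3, scipy 1.17.1, matplotlib 3.10.9). The alternatives were DESeq2 1.42.0, its size factors, total counts, other filters and thresholds, only the samples compared, each replicate left out, and the replicate number as a block. Same-numbered samples of MEFD3min and MEFD5min deviated together weakly at most.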

Additional observations from a re-analysis of the deposited data

Results flagged for a closer look

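The day 3 to day 5 change differed between untreated and treated cells in 7754 genes by the interaction term of the edgeR fit. Untreated cells had the higher change in 3622 of them and the lower change in 4132. The treated cells had lost the adipogenic mixture at day 3, so the treatment and its withdrawal cannot be told apart in this difference.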

How the results depend on the processing

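No called gene taken by the rule turned its direction under an alternative. Of the members that did not pass, E2f1 went from -0.03 to 0.07 and Mylk from -0.09 to 0.01 with total counts, and Cxcl10 from -0.27 to 0.01 without MEFD5min replicate 3. The medians of some lists turned too, for example cholesterol synthesis and uptake went from -0.10 to 0.01 with total counts, TGF-beta and BMP from -0.18 to 0.02 with at least 10 counts in every sample, and adipocyte genes from -0.37 to 0.04 without MEFD3min replicate 3. The number of DEGs for MEFD5min/MEFD3min was 7152 with DESeq2, 6819 with its size factors, 6866 with total counts, 7009 with no filter, 6021 with at least 10 counts in every sample, 5191 with only the samples compared and 4994 where the adjusted p had to lie under 0.01. Requiring a 2-fold change too left 2150 genes for MEFD5min/MEFD3min, 4068 for MEFD3min/MEFD0, 2438 for MEFD5min/MEFD0 and 3489 for the interaction, fewer by construction. Leaving out 1 replicate gave 5942 to 7263, 8824 to 9628, 6201 to 7090 and 7001 to 8466 genes for these 4 in turn. Replicate numbers paired the samples weakly at most. Same-numbered MEFD3min and MEFD5min samples had correlations of deviations of -0.0114, 0.0946 and 0.146, and not every sample correlated best with its own number. Under a replicate block the counts were 7420, 10010, 7970 and 8305, in each case more than without it. With total counts 43.9% of the MEFD3min/MEFD0 DEGs were higher (52.3% with TMM) and 59.5% of the interaction DEGs had the higher change in untreated cells (46.7% with TMM). With at least 10 counts in every sample, 14 interferon effectors and 5 GTPases were lower, since fewer of them were tested. Over all alternatives for the named genes, 70 values lost the call and 2464 kept their side of the threshold. With 3 samples a group, an exact permutation test of a single gene cannot go below p = 0.1, so calls rest on the spread shared across genes.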
